A study of Mus musculus with 7 samples.

Results

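The transcriptome described here is that of follicular dendritic cells (FDCs) from lymph nodes of wild-type mice that had not been immunized. It rests on the 4 samples whose titles give the genotype WT, of 7 samples in all. The other 3 samples carry another genotype, were not used, and no comparison of genotypes was made. Each sample was a pool of popliteal lymph nodes taken from several animals, and the pools are called pools 1 to 4 by the number in their titles. The mice were males of 8 to 12 weeks. Their strain, the number of animals per pool and the gate used to sort the cells are not given in the sources used here. Cells were sorted by flow cytometry and lysed, and SMART-Seq v4, which copies whole transcripts from very small inputs, gave the cDNA for Nextera XT libraries.

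FDCs are stromal cells of the B-cell follicle. They hold antigen on their surface by complement receptors and Fc receptors, so that B cells can sample it for long periods, and they secrete CXCL13, the chemokine that draws B cells with the receptor CXCR5 into the follicle. Their maintenance depends on lymphotoxin and tumour necrosis factor, which act through receptors that feed the NF-kappaB pathway. Sorted FDCs are few, and lymphocytes, reticular fibroblasts and endothelial cells lie next to them in the node.

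The regions just upstream of 4 genes are shown because these genes stand for the main patterns among the pools: Cxcl13 had the highest level and was uneven, Madcam1 was the most even of the 6 defining FDC markers by coefficient of variation, Mfge8 was the least even of them, and B2m was high in every pool. Each run is the 250 bases before the start of the gene in RefSeq (build GRCm38.p6), read 5′ to 3′ on the strand of the gene. Capitals mark matches on either strand to the letters TATAAA, called the TATA box here, or to the consensus of the kappaB element. The regions are chr5:95956689-95956938 (plus strand) for Cxcl13, chr10:79664309-79664558 (plus) for Madcam1, chr7:79149061-79149310 (minus) for Mfge8 and chr2:122147437-122147686 (plus) for B2m.
Cxcl13: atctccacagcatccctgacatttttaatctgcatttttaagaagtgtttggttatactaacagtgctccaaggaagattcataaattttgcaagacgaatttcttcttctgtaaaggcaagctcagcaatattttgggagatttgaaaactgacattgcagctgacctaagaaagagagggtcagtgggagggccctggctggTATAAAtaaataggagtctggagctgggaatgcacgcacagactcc
Madcam1: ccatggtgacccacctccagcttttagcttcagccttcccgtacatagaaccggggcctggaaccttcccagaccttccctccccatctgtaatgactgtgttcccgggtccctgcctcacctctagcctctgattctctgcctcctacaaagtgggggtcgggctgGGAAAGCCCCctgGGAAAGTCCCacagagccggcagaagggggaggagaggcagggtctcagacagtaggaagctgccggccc
Mfge8: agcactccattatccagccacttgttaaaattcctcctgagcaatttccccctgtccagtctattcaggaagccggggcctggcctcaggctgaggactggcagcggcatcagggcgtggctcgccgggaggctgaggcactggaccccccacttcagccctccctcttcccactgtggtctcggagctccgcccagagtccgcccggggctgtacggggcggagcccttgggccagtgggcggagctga
B2m: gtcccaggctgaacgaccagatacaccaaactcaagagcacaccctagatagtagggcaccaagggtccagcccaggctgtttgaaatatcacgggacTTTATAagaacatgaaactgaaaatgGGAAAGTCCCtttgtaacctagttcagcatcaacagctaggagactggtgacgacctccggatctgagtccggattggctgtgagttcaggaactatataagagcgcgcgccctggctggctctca

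Counted back from the gene start, Cxcl13 held a TATA box at positions -46 to -41. Madcam1 held 2 kappaB matches on the opposite strand, at -83 to -74 and at -70 to -61, and no TATA match. B2m held a kappaB match at -126 to -117 and a TATA match at -152 to -147, both on the opposite strand. Mfge8 held neither motif in this window. Over 32851 promoter windows of the same length, 12.4% held the TATA box and 3.9% the kappaB element. Of the 21 FDC list genes with an entry in the promoter table, 4 held the TATA box and 2 the kappaB element in any of their windows. These counts are of genes and the percentages are of windows, so they cannot be compared directly. These matches describe letters, and binding was not measured.

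The libraries were of similar depth and differed in how many genes they detected. Total reads ranged from 17244925 to 18873542 per pool. Genes with at least 1 read numbered 20047 in pool 1, 20042 in pool 2, 17771 in pool 3 and 18631 in pool 4. Across 12651 genes with a mean of at least 50 reads, Spearman's rho between pools ranged from 0.907 (pools 1 and 3) to 0.958 (pools 1 and 2). Genes are not independent replicates, so these values are a description. Pool 3 stood apart by more immunoglobulin and fewer T-cell transcripts, and pool 4 by more reticular fibroblast transcripts, Ccl21a most of all. Values are therefore given for each pool. The deposited values of pool 3 lay 0.10 above CPM (reads scaled to a sum of 1000000) on the log2 scale, relative to the mean of the pools, and those of pool 1 lay at -0.06, so a gene's order among pools can depend on the scaling.

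Levels of different genes are compared per length: the deposited value was divided by the length of the gene's exons and scaled to a sum of 1000000 in each pool, so a level is a part of 1000000. The most abundant transcripts were a chemokine, a component of MHC class I and mitochondrial RNAs. Of the 30 genes with the highest mean level, 12 were encoded by the mitochondrial genome and 2 were ribosomal protein genes. The 10 most abundant genes of each pool took 23.7% of the level in pool 1, 26.2% in pool 2, 23.4% in pool 3 and 24.6% in pool 4 (24.5% ± 1.25, SD, n = 4). The first 100 genes took 51.0% ± 1.28 and the first 1000 took 80.0% ± 0.795. A mean level of at least 10 was reached by 6304 of 21137 genes (29.8%).

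Cxcl13 (chr5:95956951-95961068, plus strand, GRCm38) ranked first. Its level was 23747 in pool 1, 60065 in pool 2, 42717 in pool 3 and 78019 in pool 4 (51137 ± 23263, SD, n = 4). Pool 4 thus held the highest level and pool 1 the lowest, and the highest deposited value was 3.38 times the lowest. It rested on 220816 to 761599 reads per pool. In bulk samples such as these, fewer FDCs in a pool and less RNA of the gene per FDC cannot be told apart.

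B2m, the light chain shared by MHC class I molecules, ranked second with 42291, 36291, 38072 and 28552 in pools 1 to 4. In pool 1 it exceeded Cxcl13, and in pools 2, 3 and 4 Cxcl13 exceeded it. Ifitm3, an interferon-inducible membrane protein that restricts virus entry, had a level of 15063 ± 3221 (SD, n = 4). Fth1, the ferritin heavy chain that stores iron, was the most even of the 30 on the per-length level, with 10158, 9974, 9930 and 10118. Tmsb4x, which binds actin monomers, had 5253 in pool 1 and 8092 to 10029 in the other pools. Malat1, a nuclear long noncoding RNA, had a level of 10728 ± 3094.

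Clu, the gene of the secreted chaperone clusterin and an FDC marker, ranked 15 (chr14:65968483-65981547, plus strand). Its level was 6185 in pool 1, 8490 in pool 2, 11751 in pool 3 and 11993 in pool 4. Pools 3 and 4 lay close together, and pool 1 was the lowest. Among the 30 were also predicted genes annotated as pseudogenes or ribosomal RNA, whose reads may be shared with near-identical copies. The level of Gm28437 was 13909, 5376, 20045 and 217, and its mean without pool 3 fell from 9887 to 6501. These genes are uncertain and carry no further weight here. The plot of the 30 highest genes shows each pool's level.

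**Figure D1:**
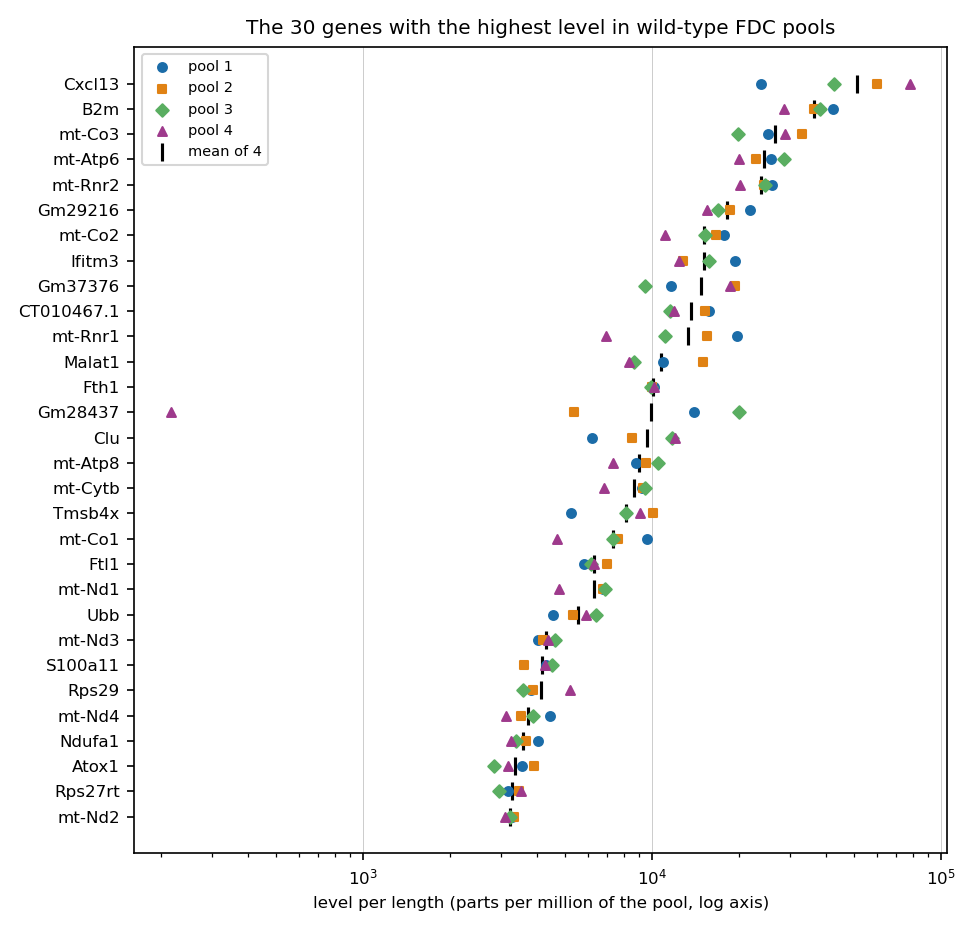
Level per length (scaled to 1000000 per pool, log axis) of the 30 genes with the highest mean level, with a point for each of the 4 wild-type pools and a bar for their mean. Cxcl13 leads by its mean, spreads from 23747 to 78019 and lies below B2m in pool 1, while the 4 points of Fth1 nearly coincide.

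By class, the 15 mitochondrially encoded genes took 16.6%, 16.1%, 15.1% and 12.6% of the level in pools 1 to 4. The 94 cytosolic ribosomal protein genes took 7.12% ± 0.535 (SD, n = 4). Nuclear protein-coding genes took 71.1%, 71.5%, 71.8% and 76.4%, so pool 4 was the lowest in mitochondrial RNA and the highest in nuclear protein-coding RNA.

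The label was checked against FDC markers. All 6 defining markers (Cxcl13, Clu, Mfge8, Madcam1, Vcam1 and Cr2) had a level of at least 100 in every pool, a level that 1079 to 1123 genes per pool reached. The full FDC list holds 29 genes, of which 26 were analysed and 3 (Fdcsp, Sox10 and Ltf) were not analysed here. All 26 had a mean of at least 50 reads, and 24 had a mean level of at least 10, against 29.8% of all genes. The list was chosen because its genes are known in FDCs, and with earlier results of these data known. A high share at that level is thus a description of the sort and no independent evidence. Its summed level was 32743 in pool 1, 74099 in pool 2, 61551 in pool 3 and 97998 in pool 4. Cxcl13 alone made up 76.8% of the mean sum. Without it the sum was 8996, 14035, 18834 and 19979, so pool 1 remained the lowest and the order of pools 2 and 3 turned. Clu, with a mean level of 9605, made up most of the mean of 15461 left without Cxcl13.

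Most FDC list members were spread between the pools. Of the 26 members, 21 had a highest deposited value at least 2 times the lowest, against 39.6% of the 12651 genes with a mean of at least 50 reads. Without pool 3 these figures were 19 of 26 and 24.7%. Pool 1 held the lowest value for 20 of 26 members, against 25% of all genes, and for 20 to 21 of 26 under every scaling tried. Without pool 3 it held the lowest for 22 of 26. Pool 4 held the highest value for 12 of 26 (26.1% of all genes) and pool 3 for 10 of 26 (29.9% of all genes). Pools 1 and 2 held the highest value for 2 members each, against 26.3% and 17.8% of all genes. Pool 2 held the lowest value for 1 member (17.1% of all genes), pool 3 for 5 (29.8%) and pool 4 for 0 (28%). Members share cells and are not replicates of a condition, so no test is given.

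Among genes that handle antigen and opsonized material, Mfge8 is a bridge between phosphatidylserine on dying cells and phagocyte integrins. Its level was 474 in pool 1, 1471 in pool 2, 2370 in pool 3 and 2963 in pool 4. The highest deposited value was 6.43 times the lowest, and the 4 pools did not cluster. Cr2, complement receptor 2, which binds C3 fragments on antigen, had 104, 277, 186 and 160 and was highest in pool 2. Fcgr2b, the inhibitory receptor for IgG, had 46.7, 112, 96.4 and 87.2. Fcer2a, the low-affinity IgE receptor CD23, had 12.5 in pool 1 and 45.6 to 66.8 in the others. B cells also express Cr2, Fcgr2b and Fcer2a. Fcamr, the receptor for IgA and IgM, had 2.33, 16.9, 27.3 and 11.2. For each of these 4 receptors and Mfge8, pool 1 was the lowest. C4b, a complement component with a near-identical neighbour in the mouse genome, had 19.3, 32.3, 35.9 and 80.2.

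Adhesion molecules of the FDC list were more even. Madcam1, the ligand of integrin alpha4 beta7, had 336 in pool 1 and 544, 548 and 641 in pools 2 to 4. Vcam1, the ligand of integrin alpha4 beta1, had 238, 293, 454 and 348. Icam1, the ligand of LFA-1, had 91.9, 92.3, 135 and 132. The highest and lowest pools of Icam1 differed by less than 2-fold. Madcam1, Vcam1 and Enpp2 also stand in the list of high endothelial venules, so 3 of the 26 do not separate FDCs from these vessels. Enpp2, autotaxin, which makes lysophosphatidic acid, had 331, 479, 521 and 703.

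Tnfrsf1a and Ltbr, receptors that maintain FDCs, were expressed at partly even levels. Their mean levels of 60.1 and 20.3 lay below the FDC list median of 139, while 29.8% of all genes reached 10. Itga9 and Ngfr are given beside them. Tnfrsf1a, the tumour necrosis factor receptor 1, had 66.8, 58.2, 53.3 and 62.3, with a coefficient of variation of 0.030 on the deposited values. Its highest deposited value was 1.07 times the lowest. Ltbr, the lymphotoxin beta receptor, had 20.2, 21.7, 12.1 and 27.4. Itga9, an integrin chain, had 34.1, 23.7, 14.7 and 24.4 and was the highest in pool 1, unlike most of the list. Ngfr, the low-affinity neurotrophin receptor, was present at 3.48, 5.77, 10.2 and 10.2.

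Among the genes for signals in the FDC list, Pthlh, the parathyroid hormone-like hormone, had 222, 624, 723 and 510. Tnfsf13b, the B-cell survival factor BAFF, had 9.94, 22.4, 23.6 and 21.4, so pool 1 lay apart from 3 close pools. Tnfsf11, RANK ligand, had 5.64, 8.39, 4.80 and 24.6, and its mean level without pool 4 was 6.28. Il6, an interleukin that acts on B and T cells, had 103, 11, 0 and 323 reads in pools 1 to 4, or levels of 5.25, 0.497, 0 and 15.7. Its 0 in pool 3 allows a level of up to 0.146, the level of 3 reads, for counting error only. Without pool 4 its mean level was 1.91.

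Other members followed the same order in part. Prnp, the prion protein, had 221, 508, 708 and 649. Serpina1e, a protease inhibitor whose reads may be shared with near-identical paralogs, had 126, 377, 434 and 501. Sox9, a transcription factor of skeletal and other mesenchyme, had 4.49, 13.0, 21.3 and 27.6. Bst1, an ADP-ribosyl cyclase of stromal cells, had 101, 174, 222 and 247. Coch, the secreted protein cochlin, was the exception in this group, with its lowest level of 146 in pool 2 and 456 in pool 4. Cilp, a secreted matrix protein, had 82.9, 183, 159 and 237. Stra6, the receptor for retinol-binding protein, had 2.97 in pool 1 and 10.2 to 12.0 in the others. The plot of the FDC list shows pool 1 to the left of the other pools in most lines.

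**Figure D2:**
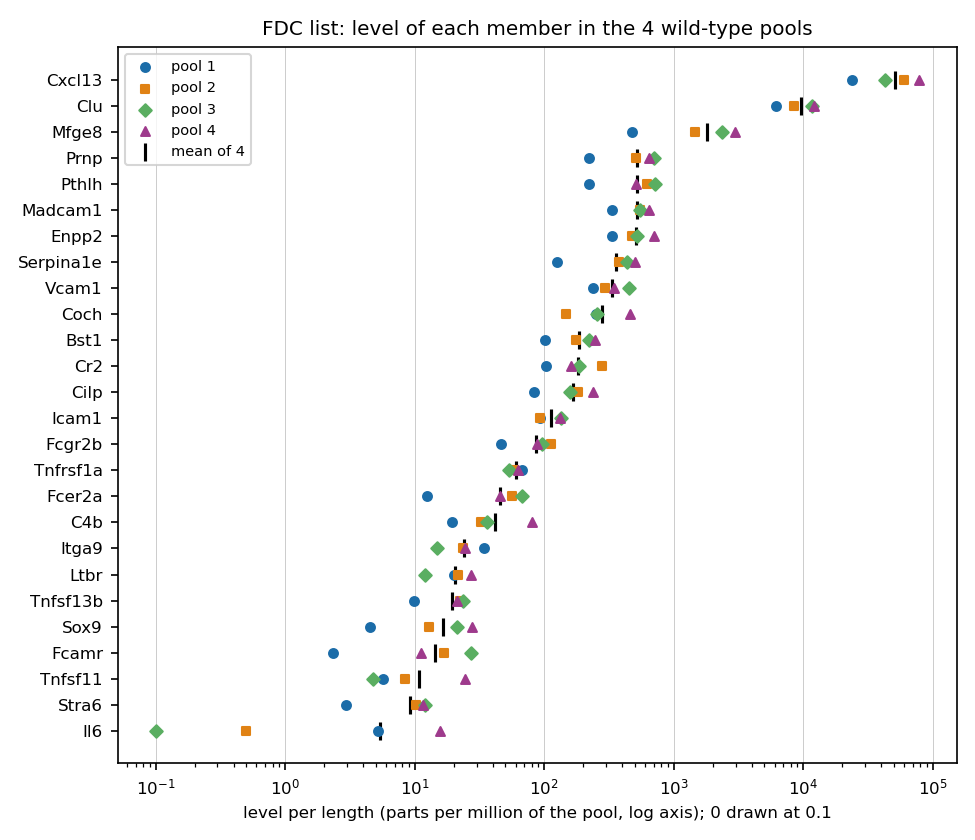
Level per length (scaled to 1000000 per pool, log axis, 0 drawn at 0.1) of the 26 analysed FDC list genes, with a point for each wild-type pool and a bar for the mean. Pool 1 has the lowest deposited value for 20 of the 26 genes, and the points of Tnfrsf1a lie close together.

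Transcripts of other stromal cells were present beside those of FDCs. The reticular fibroblast list, stromal cells that build the fibre network of the node, summed to 2593, 2337, 2470 and 5989 in pools 1 to 4. Pool 4 was thus the highest, and pool 4 held the highest value for 13 of the 23 members with at least 50 reads (26.1% of all genes). Without Ccl19 the list summed to 1856, 1397, 1426 and 4114, and Ccl21a made up most of the 4114 in pool 4. Ccl19, a chemokine for T cells and dendritic cells, had 737, 940, 1044 and 1875. Ccl21a, a second ligand of the receptor CCR7 with near-identical genomic copies, had 618, 229, 297 and 2610, and its mean without pool 4 fell from 938 to 381. Dcn, decorin of the matrix, had 204, 203, 209 and 367. Cxcl12, a chemokine of perivascular and reticular cells, had 108, 135, 186 and 286. Il33, an alarmin of reticular and endothelial nuclei, went the other way, with 393, 331, 289 and 255. Inmt, a methyltransferase of fibroblasts, had 664, 263, 14 and 0 reads. Its 0 in pool 4 allows a level of up to 0.221, and without pool 1 its mean was 6.36. The list shares Bst1 and Tnfsf13b with the FDC list.

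Fibrillar collagens were low. The 19 analysed collagen genes summed to 112 ± 35.1 (SD, n = 4), and Col1a1, the chain of type I collagen that fibroblasts make in bulk, had a mean level of 2.81 ± 2.15 and was highest in pool 4. The highest collagen levels were those of Col4a1, of basement membranes, with a mean of 17.4, and of Col12a1, with 17.3. The list of other matrix genes summed to 1981 ± 395. Its highest member was Sparc, which binds collagen, with 579, 537, 720 and 821. Mgp, an inhibitor of calcification, was read 284 times in pool 1 and 11, 0 and 1 times in pools 2, 3 and 4. Pericyte and smooth muscle genes summed to 248, 284, 290 and 450. Rgs5, a pericyte regulator of G-protein signalling, made up 51.8% of that sum, with 86.0, 154, 150 and 270, and Acta2, smooth muscle actin, had 47.6 ± 5.50.

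Endothelial transcripts were measured in every pool. The blood endothelial list summed to 3843, 2607, 3232 and 3035, with all 22 members at a mean of at least 50 reads and 19 of 22 at a mean level of at least 10 (29.8% of all genes). Its order of pools was unlike that of the FDC list: pool 1 held the highest value for 11 of 22 (26.3% of all genes) and the lowest for 0 (25%), and pool 4 held the lowest for 14 of 22 (28%). Pecam1, a junction protein of endothelium, had 93.2, 62.0, 55.1 and 52.3. Cdh5, the endothelial cadherin, had 189, 120, 108 and 98.5. Cldn5, a tight junction protein, was even, with 607, 491, 572 and 615. Plvap, the diaphragm protein of fenestrae, had 524, 415, 494 and 514. Fabp4, a fatty acid carrier of capillaries, had 827, 448, 888 and 680. Ly6c1, a glycoprotein of capillary endothelium and lymphocytes, had 1355, 1163, 97 and 0 reads, so pool 4 was at least 36.8-fold below the next pool. Its reads may be shared with Ly6c2, which had 774, 267, 171 and 2 reads.

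High endothelial venules let lymphocytes enter the node from blood. Their list, which shares 3 genes with the FDC list, summed to 3412, 2687, 3405 and 4911. Glycam1, a mucin of these venules that carries L-selectin ligands, made up 58.6% of the sum, with 2409, 1240, 1714 and 3088. Without Glycam1 the sum was lowest in pool 1 (1004) and highest in pool 4 (1823). Most of that remainder came from the 3 genes shared with the FDC list. Selp, P-selectin, was low, with 6.22, 1.64, 1.12 and 3.18, and its mean without pool 1 fell from 3.04 to 1.98.

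The lymphatic endothelial list summed to 2994, 2451, 2069 and 3508. Without Ccl21a, which reticular cells also make, it summed to 2377, 2222, 1773 and 898, so pool 4 turned from the highest to the lowest. Marco, a scavenger receptor of medullary lymphatics and macrophages, had 1138, 1246, 1031 and 334. Lyve1, the hyaluronan receptor, had 680, 598, 336 and 172. Prox1, the transcription factor that sets lymphatic identity, had 127, 76.0, 67.9 and 68.2. Pool 1 held the highest value for 6 of the 11 members (26.3% of all genes). The part of blood and lymphatic endothelial RNA in the pool differences of other genes was not tested.

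**Figure D3:**
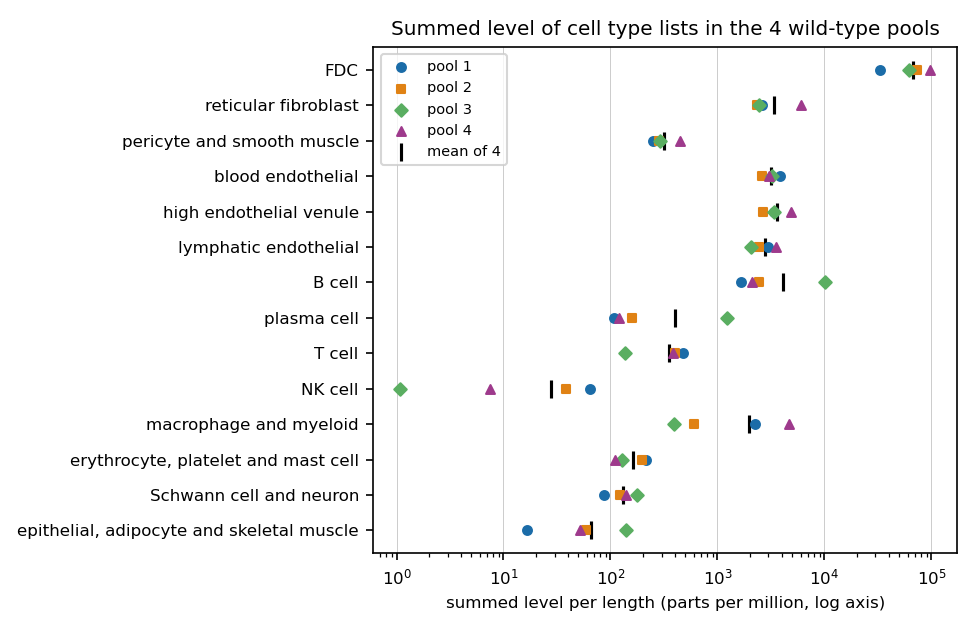
Summed level per length (scaled to 1000000 per pool, log axis) of the 14 cell type lists, with a point for each wild-type pool and a bar for the mean. The FDC list is the highest in every pool, with Cxcl13 and Clu making up most of its sum. Without Cxcl13 and Clu it would lie below the blood endothelial list in pool 1 and below the B-cell list in pool 3. Pool 3 stands to the right for B and plasma cells and to the left for T and NK cells, and the myeloid list runs from 391 to 4678.

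Lymphocyte transcripts differed by pool in a gene-specific way. The B-cell list summed to 1662, 2442, 10045 and 2099, with a mean of 4062 over the 4 pools and 2068 without pool 3. Igkc, the kappa light chain constant region, had 569, 849, 9163 and 717. The list without Igkc summed to 1094, 1594, 883 and 1381. Pool 3 was then the lowest. Cd79a, part of the B-cell receptor, had 75.9, 130, 89.6 and 129. Cd74, the invariant chain of MHC class II, had 429, 666, 431 and 550, and Iglc2, a lambda light chain constant region, had 234, 343, 95.3 and 286. Pool 2 held the highest value for 12 of 20 B-cell genes (17.8% of all genes), and pool 3 held the lowest for 10 of 20 (29.8%).

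The immunoglobulin transcripts of pool 3 were dominated by a few genes. Immunoglobulin genes took 2.16% of the level in pool 3 and 0.170% to 0.237% in the other pools. Ighg2b, an IgG heavy chain constant region (chr12:113302965-113307933, minus strand), had 3, 4, 48802 and 85 reads in pools 1 to 4. Igkv9-124, a kappa variable segment (chr6:67942074-67942540, minus strand), had 1, 18, 19966 and 1 reads. Ighv1-9, a heavy chain variable segment (chr12:114583569-114584002, minus strand), had 1, 0, 5568 and 2 reads. Each was thus read at least 5568 times in pool 3 and at most 85 times elsewhere.

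The variable segments of pool 3 were also fewer. Segments with at least 3 reads numbered 36, 37, 14 and 19 in pools 1 to 4. Igkv9-124 alone took 67.5% of the variable segment level in pool 3. In the other pools the leading segment took 9.28% (Igkv10-96, pool 1), 13.1% (Iglv1, pool 2) and 30.2% (Igkv1-117, pool 4). Variable segments resemble each other, so reads may be split among them.

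The summed level of antibody-secreting cell genes was also highest in pool 3. The plasma-cell list summed to 109, 158, 1220 and 121, with a mean of 402 and of 130 without pool 3. Jchain, which joins IgM and IgA chains, had 28, 90, 7319 and 5 reads. Iglv1, a lambda variable segment placed in this list, had levels of 36.7, 73.3, 712 and 6.33. Xbp1, the secretory transcription factor that many stromal cells also express, had 55.7, 53.8, 79.9 and 85.7. A part of antibody-secreting cells in the other values of pool 3 was not tested.

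T-cell and NK-cell transcripts were lowest in pool 3. The T-cell list summed to 480, 403, 137 and 388, and pool 3 held the lowest value for 13 of 16 genes with at least 50 reads, against 29.8% of all genes. Trbc2, a constant region of the T-cell receptor beta chain, had 151, 111, 64.7 and 96.2. Trbc1, its near-identical copy, had 521, 458, 0 and 591 reads, which puts pool 3 at least 131-fold below the next pool. Cd3e, the signalling chain of the T-cell receptor, was low beside the receptor constant regions, with 2.24, 3.87, 0.896 and 2.05. The NK list, of which 5 of 10 genes were analysed, summed to 64.2, 38.5, 1.08 and 7.46, with a mean of 27.8 and of 15.7 without pool 1. Nkg7, a cytotoxic granule protein, had 381, 256, 0 and 0 reads.

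The myeloid list summed to 2223, 603, 391 and 4678, with a mean of 1974 over the 4 pools and 1072 without pool 4. S100a8 and S100a9, the calprotectin chains abundant in neutrophils, had the highest mean levels in the list. Without S100a8 the list summed to 1426, 602, 391 and 2647, in the same order of pools. S100a8 had 4474, 6, 0 and 11966 reads, and S100a9 had 3131, 35, 0 and 8531 reads. A mean of at least 50 reads was reached by 13 of the 23 analysed members (12651 of 21137 genes in all). A mean level of at least 10 was reached by 8 (29.8% of all genes). The macrophage genes C1qa and Adgre1 were near the floor of 3 reads in all pools. C1qa, a complement chain, had 5, 7, 0 and 6 reads, and Adgre1, which encodes F4/80, had 5, 8, 0 and 0 reads. Ctss, the protease cathepsin S, which stromal cells can share, was even, with 355, 355, 322 and 423. Tyrobp, an adaptor of myeloid and NK receptors, had 413, 382, 0 and 784 reads, so pool 3 was at least 110-fold below the next pool.

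Other cell types gave little. The list of erythrocytes, platelets and mast cells, with 6 of 15 genes analysed, summed to 213, 195, 129 and 111. Pf4, platelet factor 4, had 146, 99.9, 90.4 and 76.6 and led this list. Mcpt4, a mast cell protease, had 1, 426, 5 and 0 reads. Schwann cell and neuron genes summed to 131 ± 37.1 (SD, n = 4), of which Pmp22, a myelin protein also made by fibroblasts, was 81.7%. Epithelial, adipocyte and muscle genes, with 5 of 16 analysed, summed to 16.6, 58.7, 138 and 51.4, and to a mean of 42.2 without pool 3 against 66.3 with it. Epcam, an epithelial adhesion protein, had 9.41, 43.2, 136 and 38.4.

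The order of pools is set out by list in the plot of highest and lowest pools. The order over all genes depended on the scaling: pool 1 held the highest value for 3323 of 12651 genes on the deposited values and for 4119 on CPM, and pool 3 for 3777 and 2647.

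**Figure D4:**
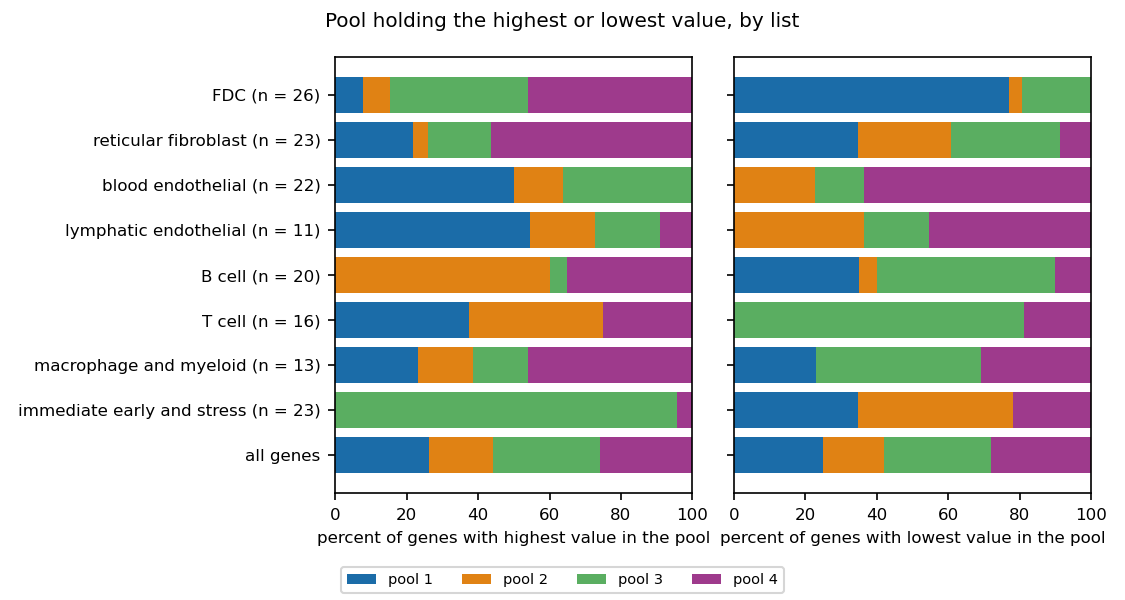
Percent of the genes of each list (n, genes with a mean of at least 50 reads) and of all 12651 such genes whose highest (left) or lowest (right) deposited value lies in each wild-type pool. Pool 1 is the lowest for 20 of 26 FDC genes, pool 3 for 13 of 16 T-cell genes, and pool 3 is the highest for 22 of 23 immediate early and stress genes.

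Secreted products were a large part of these transcriptomes. The 157 analysed genes for secreted proteins summed to 89849, 121344, 112504 and 143121, or 11.7% of the level on average. Without Cxcl13 they summed to 65567 ± 3497 (SD, n = 4), or 6.56%, with B2m as the largest member left. B2m, with a mean level of 36302, is also a part of MHC class I at the cell surface. The secreted share thus depends on counting B2m as secreted. Chemokines summed to 27487, 62463, 46886 and 84758, of which Cxcl13 was 92.3%. Inflammatory chemokines were uneven: Ccl20, the ligand of CCR6, had 501, 148, 339 and 1011. Cxcl1, a ligand of CXCR2 on neutrophils, had 512, 305, 1028 and 531. Cxcl10, an interferon-inducible ligand of CXCR3, had 127, 181, 735 and 115. Ccl2, a ligand of CCR2 on monocytes, had 497, 87.5, 215 and 18.2. The pool with the highest level thus differed among these chemokines. Ccl11, eotaxin, had 20.8, 5.48, 0 and 0, with a mean of 6.57 and of 1.83 without pool 1.

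Cytokines and growth factors summed to 1749 ± 107 (SD, n = 4), led by Pthlh and Il33 and followed by Bmp2, a bone morphogenetic protein, with 219, 110, 172 and 189. Complement genes summed to 12677 ± 2466, of which Clu was 75.8%. Cfb, complement factor B, was even, with 780, 629, 722 and 672, and Cd55, an inhibitor of complement on the cell surface, had 1658, 1128, 1169 and 752. C5ar1, the C5a receptor, was low, with 0.674, 0.171, 2.34 and 6.51, and its mean without pool 4 fell from 2.42 to 1.06. Opsonins, carriers and protease inhibitors summed to 55959 ± 3575, of which B2m was 64.9%. Without B2m they summed to 14768, 17748, 22367 and 23748 in pools 1 to 4, which was less even. Among them were Apoe, a lipid carrier, with 1367 ± 188 and Igfbp7, which binds insulin-like growth factors, with 1262 ± 216. Slpi, an inhibitor of leukocyte elastase, had 22, 2, 2443 and 628 reads.

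Surface genes, counted without B2m, took a smaller share. The 110 analysed members summed to 10077 ± 632 (SD, n = 4), or 1.01% of the level. Adhesion genes and tetraspanins summed to 5537 ± 725. Cd63, a tetraspanin of endosomes and exosomes, had 1233, 1736, 1776 and 1791, and Cd9, another tetraspanin, had 673, 969, 1264 and 1172. Pool 1 was the lowest in both. Itga4, the integrin alpha4 chain of lymphocytes, had 169, 196, 28 and 171 reads. Fc and complement receptors summed to 586 ± 120, led by Cr2 and by Fcgrt, the neonatal Fc receptor, with 132, 117, 143 and 165.

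Receptors for cytokines and growth factors summed to 1577 ± 122, and no gene dominated them. Ifngr1, a chain of the interferon gamma receptor, was the highest, with 207, 274, 292 and 236, and Ifnar2, of the type I interferon receptor, had 186 ± 20.6. Fas, a death receptor, had 53.6 in pool 1 and 124 to 148 in the others. Tnfrsf9, a costimulatory receptor also known as 4-1BB, had 14.4, 16.8 and 5.71 in pools 2 to 4 and was lowest in pool 1. Pattern recognition and scavenger receptors summed to 2377 ± 500, with Marco first and Ly96, the partner of the lipopolysaccharide receptor, at 519, 646, 827 and 507. Cd36, a fatty acid translocase also in the blood endothelial list, had 326, 110, 183 and 293. Ackr3, an atypical receptor of CXCL12, had 26.0, 16.9, 76.8 and 34.6.

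MHC class I genes summed to 41740 ± 5411 (SD, n = 4), of which B2m was 87.0%. Without B2m they summed to 4591, 4289, 6783 and 6093. Of the 12 genes, 1 was spread 2-fold or more, against 39.6% of all genes. Among all genes of 500 to 5000 reads that share was 17.5%, and it was 15.2% for 5000 reads and above. H2-D1 and H2-K1, classical heavy chains whose reads may be shared with related genes, had 2557 ± 758 and 1658 ± 298. Pool 3 held the highest value for 10 of 12 of these genes on the deposited values (29.9% of all genes), but for 6 on CPM and for 5 on the per-length level. MHC class II genes summed to 795, 1427, 906 and 1126, with H2-Aa at 83.1, 159, 81.9 and 86.6. Pool 2, which was also the highest for most B-cell genes, held the highest value for 6 of 10 (17.8% of all genes). The part of B-cell RNA in these values was not tested. Ciita, the activator of class II genes, had 0.986, 0.748, 0.260 and 1.95.

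Immediate early and stress genes, which are switched on within minutes of stimulation and also by tissue handling, were high in all pools and highest in pool 3. Their sum was 7631, 6178, 13046 and 8547. Fos, a chain of the AP-1 factor, had 2716, 2079, 4603 and 2800. Ier3, an early response gene, had 433, 358, 1241 and 654, and Dusp1, a phosphatase of MAP kinases, had 597, 506, 863 and 571. Pool 3 held the highest value for 22 of 23 members, against 29.9% of all genes, and for 20 on CPM and 19 on the per-length level. A 2-fold spread was seen in 16 of 23 (39.6% of all genes) and, without pool 3, in 4 of 23 (24.7% of all genes). Handling time was not tested. Heat shock genes summed to 2825, 2709, 3306 and 4440 and were thus highest in pool 4, which held the highest value for 9 of 13 (26.1% of all genes). Hspb1, a small heat shock protein, had 185, 161, 220 and 463.

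Proliferation genes were low. The 18 listed genes summed to 208 ± 25.6 (SD, n = 4), of which Pcna, the sliding clamp of replication that repair also uses, made up 48.0%. Top2a, a topoisomerase of dividing cells, had 1.06, 1.07, 0.105 and 2.37, with a mean of 1.15 and of 0.744 without pool 4. Housekeeping genes summed to 31502 ± 1237, and 0 of 16 were spread 2-fold or more (39.6% of all genes, and 15.2% of those with 5000 reads and above).

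Spread between the pools fell with read depth. The median coefficient of variation (SD over mean of the 4 deposited values) was 0.255 over 12651 genes. It was 0.327 for genes of 50 to 500 reads, 0.190 for 500 to 5000 and 0.140 for 5000 and above. The corresponding shares of genes spread 2-fold or more were 55.9%, 17.5% and 15.2%. The share over all 12651 genes was 39.6% and fell to 24.7% without pool 3. An edgeR fit with an intercept only gave a common biological coefficient of variation of 0.382. Among the 1000 most abundant genes, the steadiest on the deposited values were Slirp, which stabilizes mitochondrial mRNA (0.010), Ap2s1, of the clathrin adaptor (0.014), and Romo1 and Rps28 (0.017 each). Rpl7, Mrps24, Hint2, Naa38, Srp14 and Rpl21 followed, at 0.019 to 0.025. The deposited values of pools 3 and 1 lay 0.10 and -0.06 from CPM on the log2 scale. Which genes are the steadiest thus depends on the scaling.

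Genes apart in 1 pool were most frequent in pool 3. There, 28 genes lay at least 4-fold above and 262 at least 4-fold below every other pool. The counts were 2 and 39 in pool 1, 1 and 11 in pool 2, and 19 and 123 in pool 4. Pool 1 was 9.56-fold below the next pool for Meig1 and 7.76-fold for Slc2a6, and Pabpc5 and Olfr68 were at least 14.1-fold and at least 9.31-fold lower there. In pool 2, Ptgs2, the inducible cyclooxygenase, was 8.20-fold lower, Ada, adenosine deaminase, was 8.06-fold lower and Rbm3os was at least 10.4-fold lower. In pool 4, Ccr1, a chemokine receptor of neutrophils and monocytes, had 240 reads against 4, 0 and 0, while Tm4sf20 and Chrm2 were at least 42.5-fold and at least 39.1-fold lower. The plot of spread against depth sets these genes beside the FDC list.

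**Figure D5:**
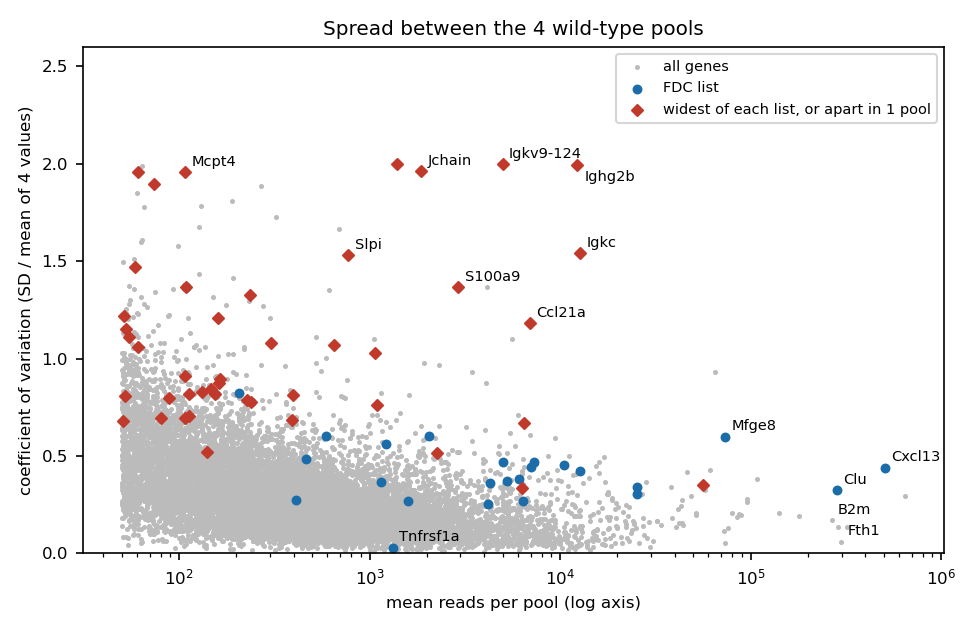
Coefficient of variation of the 4 deposited values against mean reads per pool (log axis) for the 12651 genes with at least 50 reads on average (grey), the FDC list (blue) and the widest gene of each list or genes apart in 1 pool (red). The immunoglobulin genes Igkv9-124 and Ighg2b reach a coefficient near 2, while Fth1 and Tnfrsf1a lie near the bottom.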

How the data were processed

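RNA was measured by sequencing in 4 wild-type pools. The authors deposited 1 table of normalized signal per gene, which its name calls TMM (trimmed mean of M values, which scales samples for depth and make-up). The build mm10 and bcl2fastq 2.20.0.422 are named per the submitters' processing notes. The aligner, the counting program, its annotation and the TMM software are not given in the sources used here, nor is any use of molecular identifiers. The columns of the 3 other samples were not used.

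In every pool 100% of the deposited signal values were whole multiples of 1 step (tolerance 0.01 read), so reads were recovered by division. The value of 1 read was 0.00374 to 0.00435. The table held 21176 genes, of which 51 were at 0 in all 4 pools. Exon lengths and coordinates came from GENCODE M21 (GRCm38, union of exons). 21137 identifiers matched and 39 did not. Levels are per length, while folds, coefficients of variation and the order of pools use the deposited values. The order of pools and the evenness of a gene can differ between these 2 scales. Folds against a pool under 3 reads use 3 reads per library as a floor, which covers counting error only.

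There is 1 group, so no test between groups was made. The 30 lists held 549 symbols, of which 497 were analysed here. Members and lists were chosen with earlier results of these data known. Named are the 30 genes of highest level, the FDC list, the 3 highest genes and the most variable gene of each list, the 5 genes furthest apart in each pool (no predicted genes or pseudogenes) and the 10 steadiest genes among the 1000 most abundant. Other named genes were chosen after their values were seen. Some listed genes are not reported here. Spread was taken over genes with a mean of at least 50 reads. Python 3.11.15, R 4.3.3 and edgeR 4.0.16 (dispersion of an intercept-only fit on recovered reads) were used and tested on simulated data. The series text calls the samples independent, and nothing more is said of their origin. The alternatives were another gene length, other read minimums, other scalings, mitochondrial genes left out and leaving out each pool. Member counts by scaling or without pool 3 were added after seeing the data.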

Additional observations from a re-analysis of the deposited data

Results flagged for a closer look

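In a group of 4 samples, a value was looked at again where the gap between the highest or lowest pool and its neighbour took a larger part of the whole range than Dixon's 95% critical value allows. Of 201 results, 24 passed. Chance flags about 1 in 20 groups of unselected values, but some genes were named because 1 pool stood apart, and results share genes, so the number that passed cannot be set against that rate.

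In pool 3 the values that stood apart were high for immunoglobulin and antibody-secreting cell transcripts. The level was 10045 for the B-cell list, 1220 for the plasma-cell list, 9163 for Igkc, 712 for Iglv1, 343 for Jchain, 6667 for Igkv9-124, 1870 for Ighv1-9 and 2148 for Ighg2b. Immunoglobulin genes took 2.16% and variable segments 0.987% of the level there. Itga4 was low in pool 3, at 0.236 against 1.44 to 1.54 in the others.

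In pool 4 the reticular fibroblast list stood high at 5989, with Ccl21a at 2610, Dcn at 367 and Col16a1, a collagen chain, at 6.68. Ccr1 was high there at 9.98, and nuclear protein-coding genes took 76.4% of the level. The mitochondrial genes mt-Cytb, at 6803, and mt-Nd1, at 4761, were low in pool 4.

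In pool 1 Tnfsf13b was low at 9.94 and Cd63 low at 1233, while Mgp was high at 29.6. In pool 2 Mcpt4 was high at 42.2 and H2-Aa high at 159. Of the 24 results, 11 fell in pool 3, 8 in pool 4, 3 in pool 1 and 2 in pool 2. The causes were not tested.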

How the results depend on the processing

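No paired analysis was possible because 1 group is described and the results come from no test. The share of the 10 most abundant genes (24.5%) was 20.8% with the longest transcript as length, 17.2% with no length and 22.7% without mitochondrially encoded genes. The blood endothelial sum (3179) was 5049 with no length and 3748 without mitochondrially encoded genes. With no length the B-cell sum (4062) was 1736 and the myeloid sum (1974) was 804, both shifts under 1 SD between pools. The share of genes spread 2-fold or more (39.6%) was 52.0% at a minimum of 10 reads, 17.2% at 500 reads and 40.6% on CPM. The median coefficient of variation (0.255) was 0.314 at 10 reads, 0.186 at 500 reads, 0.257 with median ratio factors, 0.259 on CPM and 0.308 by edgeR. The lowest rank correlation (0.907) was 0.920 at 10 reads and 0.918 without a filter. Leaving out each pool gave 24.7% to 34.8% for the 2-fold share (lowest without pool 3), 0.215 to 0.267 for the coefficient and 0.904 to 0.913 for the correlation. It gave 23.9% to 24.8% for the top 10, 56131 to 77883 for the FDC list, 2958 to 3370 for blood endothelium, 2068 to 4862 for B cells, 309 to 423 for T cells, 1072 to 2502 for the myeloid list and 2467 to 3684 for reticular fibroblasts. The causes of these shifts were not tested. Of the other values under alternatives, 1089 moved by less than 1 SD between pools and 208 by more. Of the 208, 113 came with no length, 55 with the longest transcript as length and 40 without mitochondrially encoded genes. Under these settings 74, 132 and 135 values moved by less. With so few pools, leaving out 1 pool cannot move a mean by 1 SD. The rest of the 1089 are such values, so they do not show robustness. Jchain is among them, though its mean level fell from 87.1 to 1.84 without pool 3. With 17244925 to 18873542 reads, 3 reads of a gene of 1000 bases were worth a level of 0.329 to 0.371, and order among genes near that level is not resolved.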
